A study of Danio rerio with 9 samples.

Results

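The runx1-/- and WT zebrafish larvae of 6 days post fertilisation (dpf) were compared through cells sorted for low cd41:GFP fluorescence and profiled by droplet single-cell RNA-seq. The runx1-/- group was of the EK strain and carried the del8 (hg96) allele of runx1 together with the tg(cd41:GFP) transgene. The WT group was of the same strain and age and carried the transgene alone, so both groups had the reporter, and both were sorted through the same GFP-low gate. Each group was 1 library, and the labels do not say how many larvae it pooled. All barcodes of these libraries with at least 500 UMIs (unique molecular identifiers, each standing for 1 captured transcript), at least 200 genes and at most 20% mitochondrial UMIs were used. That left 767 runx1-/- and 2728 WT cells, 3495 of the 29994 cells that pass the same limits in the 9 libraries of the series, which also cover 2.5, 10 and 16 dpf. With 1 library a side the differences have no replicate check, no test was possible, and every interval given covers counting error only.

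Runx1 is the runt-domain factor through which haemogenic endothelium in the wall of the dorsal aorta gives rise to blood stem cells. Cells leaving that endothelium lose vascular genes and gain blood genes, seed the caudal haematopoietic tissue, and later colonise the thymus and kidney. Gata2 factors act in the same step and in stem cell upkeep, and zebrafish have a pair of them, gata2a and gata2b. Itga2b (cd41) is an integrin subunit, and its GFP reporter is dim in blood stem and progenitor cells and bright in thrombocytes, the fish counterpart of platelets. A GFP-low gate can also admit cells with weak reporter activity outside the blood, and the endothelial, epidermal and other lists below were counted for that reason.

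The runx1-/- cells had fewer UMIs at the median than the WT cells. They had a median of 4276 UMIs and 1016 genes, against 13353 UMIs and 1503.5 genes in WT, and summed to 5141744 UMIs, against 37129111 in WT. Shares of cells were therefore taken after each cell was thinned to 2000 UMIs, which leaves out the 25.7% of runx1-/- cells and 9.13% of WT cells below that depth and keeps 570 runx1-/- and 2479 WT cells. The libraries shared 22 cell barcodes. In 21 of them the runx1-/- cell was large (25667 to 60590 UMIs) and the WT cell held 1.82% to 2.33% as many UMIs, with a Pearson correlation of 0.71 to 0.90 between their counts across genes. These barcodes held 15.7% of all runx1-/- UMIs and 0.108% of WT UMIs. Most results that rest on them are given with and without them. Summed levels are given in CPM, the UMIs of a gene divided by all UMIs of the library or class of cells and put on a common scale.

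The cell mix differed between the genotypes outside the blood lists, with larger shares of endothelial, epidermal and neuronal cells in the runx1-/- library. A cell was assigned to a marker list when UMIs of at least 2 different genes of that list were found in it, so a cell can belong to several lists. In runx1-/- 18.8% of cells (107 of 570, exact Clopper-Pearson 95% interval 15.6 to 22.2%) belonged to the endothelial list, against 0.363% of WT cells (9 of 2479, 0.166 to 0.688%). Epidermal-list cells made up 20.7% of runx1-/- cells (118 cells, 17.4 to 24.3%) and 5.45% of WT cells (135 cells, 4.59 to 6.41%). Neuron-list cells made up 4.74% (27 cells) and 0.0403% (1 cell). The fibroblast or mesenchyme list held 17.0% of runx1-/- and 4.15% of WT cells, and 94 of these 97 runx1-/- and 101 of these 103 WT cells also belonged to the epidermal list. In all, 46.8% of runx1-/- cells and 6.33% of WT cells belonged to at least 1 list of a tissue other than blood. Cells of no list made up 27.0% of runx1-/- and 52.8% of WT cells, so for much of each library the markers gave no type.

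Cells with markers of haematopoietic stem and progenitor cells (HSPC; myb, meis1b, lmo2, tal1, gata2b, runx1, kita, gfi1aa, adgrg1 and tcf15) were present in both libraries. They were 34.04% of runx1-/- cells (194 of 570, 30.1 to 38.1%) and 24.7% of WT cells (612 of 2479, 23.0005 to 26.4%). The log2 ratio of the shares was 0.46 (0.27 to 0.66), and the markers summed to 812 CPM in runx1-/- and to 662 CPM in WT. The size and sign of the share difference depended on how the class was drawn. Without thinning the shares were 46.7% of runx1-/- and 64.5% of WT cells. After thinning, HSPC-list cells with no UMI of any endothelial marker were 13.5% of runx1-/- cells (77 cells) and 22.9% of WT cells (567 cells). With meis1b left out of the list the shares were 26.5% and 23.4%. The gene meis1b also gave UMIs outside the blood, in 26 of 114 runx1-/- and 36 of 115 WT cells with at least 3 epidermal markers, a stricter class that also serves below as a measure of free RNA and is called strict epidermal cells.

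Mature blood lists were small. Neutrophil-list cells were 1.05% of runx1-/- cells (6 cells, 0.387 to 2.28%) and 4.07% of WT cells (101 cells, 3.33 to 4.93%). T lymphoid-list cells were 0.351% (2 cells) and 1.73% (43 cells), and macrophage-list cells 0.175% (1 cell) and 0.605% (15 cells). The T lymphoid list includes ccr9a, found in 0.351% of runx1-/- and 30.7% of WT cells, and the part of this gene in the T lymphoid shares was not tested. Cells of the NK or innate lymphoid list were 0 of 570 in runx1-/-, which allows a share of up to 0.526%, and 0.323% (8 cells) in WT. Thrombocyte-list cells were 1.93% (11 cells, 0.967 to 3.43%) and 2.02% (50 cells, 1.501 to 2.65%), shares whose intervals overlap. The erythroid list held 4.39% of runx1-/- cells (25 cells) and 15.5% of WT cells (385 cells), and its summed counts ran the other way, as given with the red cell genes.

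**Figure D1:**
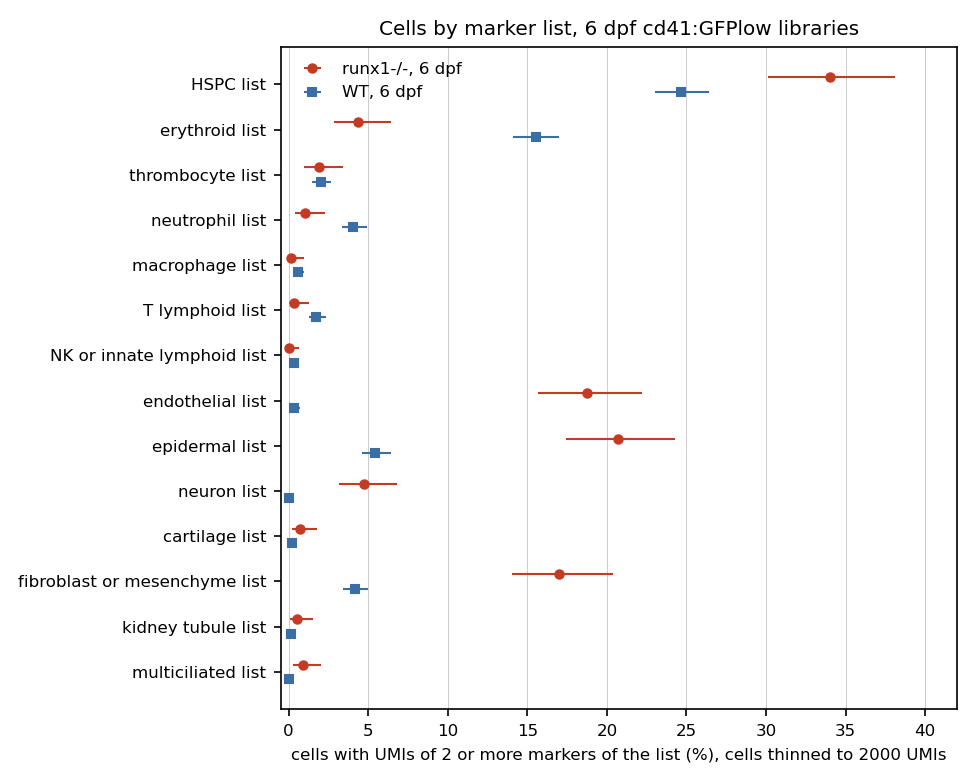
Share of cells (percent) with UMIs of at least 2 markers of each list at 6 dpf, each cell thinned to 2000 UMIs, with runx1-/- above WT and exact 95% binomial intervals as bars. Endothelial-list cells stand at 18.8% in runx1-/- and 0.363% in WT, epidermal-list cells at 20.7% and 5.45%, and erythroid-list cells at 4.39% and 15.5%.

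The HSPC and endothelial lists met in the same runx1-/- cells. Of the 194 HSPC-list cells of runx1-/-, 61 (31.4%, 24.98 to 38.5%) also had at least 2 endothelial markers, against 5 of 612 (0.817%) in WT. At least 3 endothelial markers were found in 34 of the 194 runx1-/- cells (17.5%) and in 0 of the 612 WT cells, which allows a share of up to 0.490%. Removing the highest doublet scores took out only 5 of the 767 runx1-/- cells and left 106 of the 107 endothelial-list cells. With so few cells removed this could hardly change the overlap, and the part of doublets in it was not tested. Of endothelial-list cells, 61 of 107 in runx1-/- (57.0%, 47.1 to 66.5%) and 5 of 9 in WT (55.6%, 21.2 to 86.3%) were HSPC-list cells, which are like shares. Whether the cells of both lists are progenitors or endothelial cells was not tested. Single genes of the 2 lists also met in the same runx1-/- cells. Of cells with a UMI of myb, a transcription factor of definitive blood progenitors, 35.8% (38 of 106) in runx1-/- and 0.484% (3 of 620) in WT had a UMI of the endothelial tight junction gene cldn5b. Of cells with gata2b, 43.5% (27 of 62) in runx1-/- and 0 of 84 in WT had cldn5b. In strict epidermal cells, which should lack these genes, cldn5b was found in 0.877% of 114 in runx1-/- and in none of 115 in WT. The overlap of HSPC-list with epidermal-list cells was 2.58% (5 cells) in runx1-/- and 0.654% (4 cells) in WT. Cells of both lists (HSPC and endothelial) were also found at the other ages. They were 0.682% of runx1-/- and 0.0909% of WT cells at 2.5 dpf, 13.9% and 0.952% at 10 dpf, and at 16 dpf 4.72% of bloodless and 1.85% of recovered runx1-/- and 0.295% of WT cells.

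**Figure D2:**
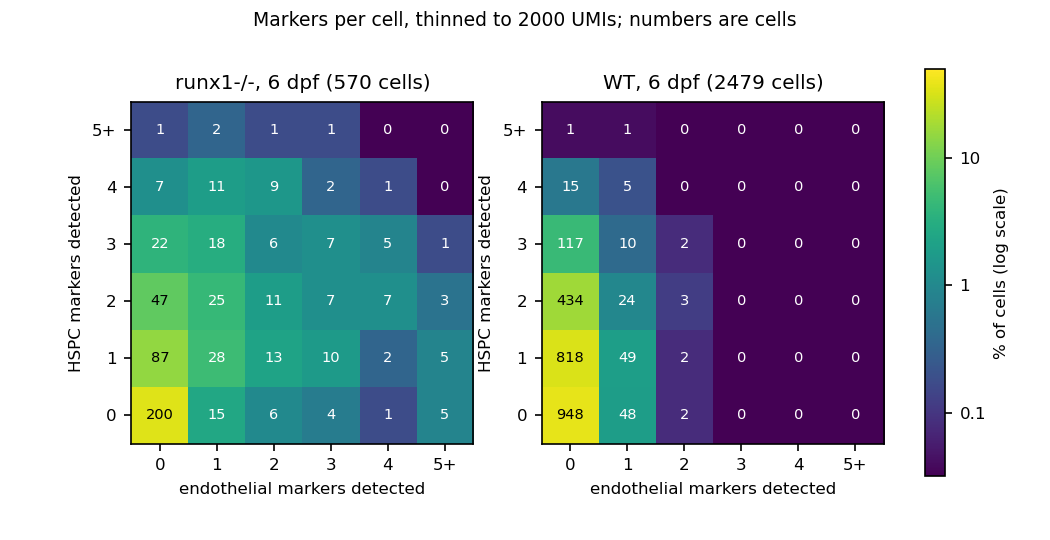
Number of cells by how many different HSPC markers (vertical axis) and endothelial markers (horizontal axis) gave a UMI after thinning to 2000 UMIs, runx1-/- left and WT right, coloured by the percentage of cells on a log scale. The runx1-/- library has 61 cells with at least 2 markers of each list and WT has 5, although WT has 612 HSPC-list cells and runx1-/- 194.

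All 20 endothelial markers had a higher CPM in runx1-/-, as did 6116 of 7319 genes with a mean of at least 5 CPM. The markers summed to 756 CPM in runx1-/-, against 25.4 CPM in WT. The junction gene cldn5b had 461 CPM (443 to 480) in runx1-/- and 1.08 CPM (0.770 to 1.47) in WT. VE-cadherin, the adhesion molecule of endothelial junctions encoded by cdh5, had 57 counts in runx1-/- and 0 in WT, at least 137-fold higher in runx1-/- against a floor of 3 counts. The endothelial adhesion gene esama had 87 and 2 counts, egfl7, a secreted vascular factor, 110 and 4, and ecscr, an endothelial surface receptor, 190 and 2. The SoxF factor sox7 had 77.8 CPM in runx1-/- and 4.63 CPM in WT, and pecam1, an endothelial and platelet adhesion gene, had 21.8 and 0.458 CPM. Leaving the shared barcodes out gave an endothelial sum of 890 CPM in runx1-/- and 25.4 CPM in WT.

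Over all genes the libraries were offset. Of 7319 genes with a mean of at least 5 CPM, 3113 (42.5%) were more than 2-fold higher and 210 (2.87%) more than 2-fold lower in runx1-/- by CPM, and the median gene had a log2 ratio of 0.84. The 84 ribosomal protein genes took 37.7% of runx1-/- UMIs and 57.6% of WT UMIs. Relative to the median gene, 1471 genes (20.1%) were higher and 898 (12.3%) lower. A gene with a log2 ratio near 0.84 is therefore at the level of the typical gene, and counts for gene lists are given both ways. Within HSPC-list cells chosen on all their UMIs (358 runx1-/- and 1760 WT cells, median 6234 and 17254 UMIs) the offset was 0.91. In these cells 45.1% of 6675 genes were higher and 2.64% lower by CPM, and 15.8% and 13% relative to the median gene. For a gene that is itself an HSPC marker, the cells were chosen without it. Since a deeper cell shows more markers, the cells were also chosen after thinning (194 runx1-/- and 612 WT cells), where the offset was 1.01.

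The targeted gene runx1 was counted in both libraries. It had 50 counts in runx1-/- (9.72 CPM, exact Poisson 95% interval 7.22 to 12.8) and 69 in WT (1.86 CPM, 1.45 to 2.35), a log2 ratio of 2.40 (1.83 to 2.93). It was found in 3.33% of runx1-/- cells (19 cells) and 0.323% of WT cells (8 cells), and in none of the 114 runx1-/- or 115 WT strict epidermal cells. Within HSPC-list cells it had 14.4 CPM in runx1-/- and 1.19 CPM in WT. Counts at the 3′ end of a transcript do not show whether it carries the small deletion, so these values do not check the label. At 2.5 dpf runx1 had 0.247 CPM (3 counts) in runx1-/- and 0.0358 CPM (1 count) in WT. The 2.5 dpf libraries list 26586 genes, against 26573 at 6 dpf, and hold no barcode below 2907 UMIs, so their levels may not compare with those of later ages. At 10 dpf runx1 had 3.998 and 1.93 CPM. At 16 dpf it had 1.53 CPM in bloodless and 1.38 CPM in recovered runx1-/- and 0.685 CPM in WT. Among its family, runx3, the paralog with roles in myeloid and lymphoid cells, had 4.67 CPM in runx1-/- and 30.6 CPM in WT, a log2 ratio of -2.66 (-3.36 to -2.13). Within HSPC-list cells runx3 had 5.72 and 20.5 CPM, a log2 ratio of -1.76 that was -0.37 (14 and 112 counts) in the HSPC-list cells chosen after thinning. The gene of the partner subunit of all Runx proteins, cbfb, had 38.9 CPM in runx1-/- and 18.2 CPM in WT over all cells, and 53.7 and 16.2 CPM within HSPC-list cells.

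Of 4 tested gata factors, 3 were more than 2-fold higher by CPM in runx1-/-, against 42.5% of all genes, and none lower. Relative to the median gene 2 were higher, against 20.1% of all genes. The paralog gata2b, expressed in haemogenic endothelium, had 59.1 CPM (52.7 to 66.2, 304 counts) in runx1-/- and 18.8 CPM (17.5 to 20.3, 699 counts) in WT. Within HSPC-list cells it had 90.9 CPM (80.6 to 102) in runx1-/- and 20.1 CPM (18.5 to 21.8) in WT, a log2 ratio of 2.18. It was found in 10.9% of runx1-/- and 3.39% of WT cells and in none of the strict epidermal cells of either library. Of myb-positive cells, 23.6% (25 of 106) in runx1-/- and 4.03% (25 of 620) in WT had gata2b. The broader vascular paralog gata2a had 12.6 CPM in runx1-/- and 2.80 CPM in WT, and 15.3 and 0.741 CPM within HSPC-list cells (48 and 22 counts). In HSPC-list cells without any endothelial UMI among all their UMIs (98 runx1-/- and 1328 WT cells), the median gene stood at 1.13. There gata2b had a log2 ratio of 1.91, less than 2-fold above the median gene, and gata2a one of 4.43, from 12 and 13 counts. Haemoglobin genes summed to 58133 CPM in these 98 runx1-/- cells and to 9199 CPM in the 1328 WT cells. Levels in this class, here and below, are given with the shared barcodes only, and their part in these levels was not tested. The T cell and epithelial factor gata3 had 18.3 and 4.74 CPM. The red cell factor gata1a had 25.9 CPM in runx1-/- and 16.3 CPM in WT, and its log2 ratio of 0.67 became -0.50 without the shared barcodes. The order of the genotypes for gata2b was the other way at 2.5 dpf, with 1.65 CPM in runx1-/- and 17.6 CPM in WT. It was the same at 10 dpf, with 75.6 and 13.7 CPM, and at 16 dpf, with 15.9 CPM in bloodless and 9.94 CPM in recovered runx1-/- and 5.52 CPM in WT.

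Stem and progenitor factors did not move as 1 group. Over all genes 42.5% were more than 2-fold higher and 2.87% lower by CPM (20.1% and 12.3% relative to the median gene). Of the 12 factors tested, 5 were higher and 2 lower by CPM (4 and 3 relative to the median gene). Their median log2 ratio was 0.04, against 0.84 over all genes tested. The higher genes included meis1b, a homeobox cofactor of Hox proteins, with 147 CPM in runx1-/- and 23.8 CPM in WT. Another was fli1a, an ETS factor shared by endothelium and blood precursors, with 74.7 and 13.4 CPM, and another hhex, a homeobox factor of the same precursors, with 44.7 and 9.37 CPM. The zinc finger repressor gfi1aa had 28.0 CPM in runx1-/- and 1.35 CPM in WT, from 144 counts in 26 cells and 50 counts in 34 cells. In HSPC-list cells it had 44.4 and 0.439 CPM, and in those with no endothelial UMI 10.2 and 0.437 CPM, from 10 counts in each library. The GATA cofactor zfpm1 had 18.5 and 7.03 CPM, a log2 ratio of 1.40 that is less than 2-fold from the median gene.

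The core blood regulators were at like CPM in both libraries. Over all cells lmo2, the LIM adaptor of the stem cell leukaemia complex, had 239 CPM in runx1-/- and 225 CPM in WT, and its partner tal1 had 140 and 143 CPM. The gene myb had 132 CPM in runx1-/- and 168 CPM in WT, more than 2-fold below the median gene. Within HSPC-list cells myb had 199.5 and 198.5 CPM, a log2 ratio of 0.01 (-0.12 to 0.13). The lymphoid and stem cell factor ikzf1 had 15.4 and 15.6 CPM over all cells. The 2 lower genes were tcf15, a basic helix-loop-helix factor, with 4.28 CPM in runx1-/- and 55.4 CPM in WT, and fli1b, a paralog of fli1a, with 1.75 and 12.9 CPM. Within HSPC-list cells tcf15 had 5.10 CPM (16 counts) in runx1-/- and 53.7 CPM (1556 counts) in WT.

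**Figure D3:**
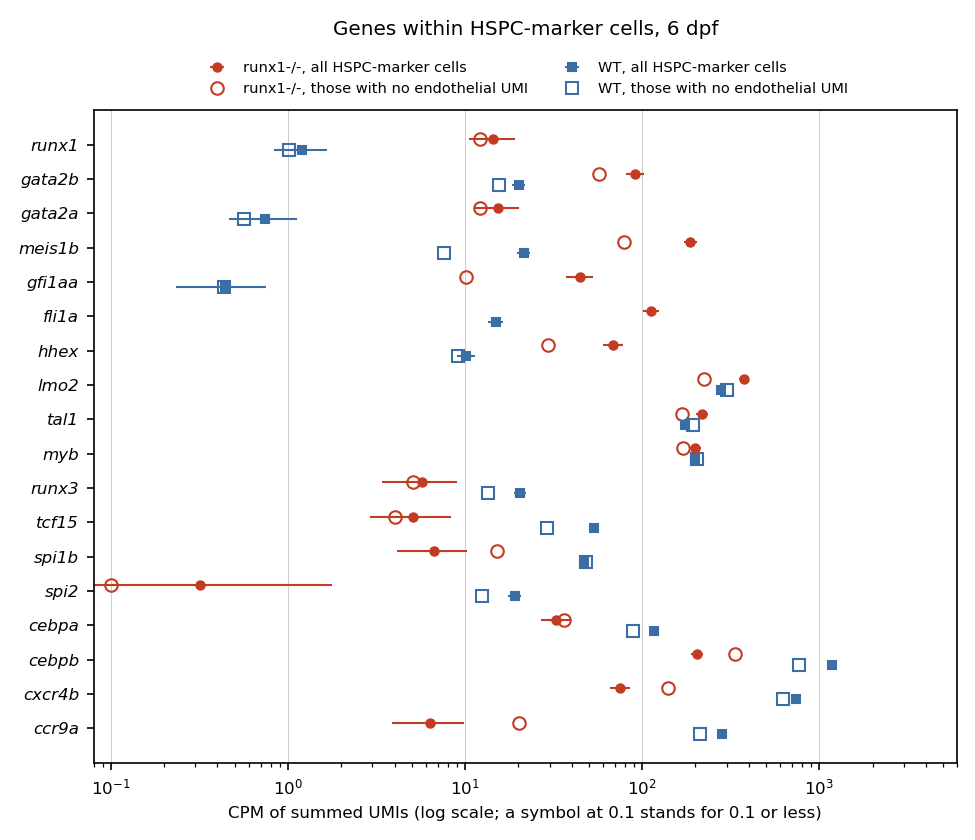
CPM (log axis) of 18 genes summed over HSPC-list cells at 6 dpf, runx1-/- as circles and WT as squares, with 95% Poisson intervals as bars; open symbols are the HSPC-list cells with no endothelial UMI, not drawn for fli1a because it is itself an endothelial marker. Genes from runx1 to hhex lie to the right in runx1-/-, lmo2, tal1 and myb lie close together, and genes from runx3 to ccr9a lie to the left in runx1-/-.

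The runx1-/- HSPC-list cells varied among themselves, and part of that variation lay in the shared barcodes. The 61 cells with at least 2 endothelial markers after thinning were set against the 77 without any endothelial UMI after thinning. Before thinning they had medians of 5047 and 5615 UMIs and means of 6236 and 10864 UMIs. Levels used all UMIs, so the 77 can hold endothelial UMIs that thinning left out. Of the 77, 8 had shared barcodes, and without them the other 69 cells had a mean of 7374 UMIs. HSPC markers were again measured in cells chosen without the marker itself. The cells with endothelial markers had 160 CPM of gata2b, against 52.0 CPM in those without endothelial UMIs and 80.4 CPM with the shared barcodes also left out. They had 407 CPM of meis1b, against 139.6 and 227 CPM, and 630 CPM of lmo2, against 298.5 and 338 CPM. They had 212 CPM of myb, against 294 and 341 CPM. The intervals for runx1 overlapped, with 7 counts in cells with endothelial markers and 9 in those without.

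The zinc finger factor blf, known from zebrafish blood precursors, had 52.6 CPM in runx1-/- HSPC-list cells with endothelial markers. It had 522 CPM in those without endothelial UMIs and 423 CPM with the shared barcodes also left out. The embryonic globin hbbe1.1 had 2 counts in the cells with endothelial markers and 4020 in those without, of which 58.2% lay in 1 cell, and 5 counts without the shared barcodes. The log2 ratio of gata1a was -1.28 with the shared barcodes and 0.10 without them. The red cell anion exchanger gene slc4a1a had 0 and 217 counts, and 0 and 30 without shared barcodes. Of 24 tested genes of DNA replication, 19 were more than 2-fold lower in the cells with endothelial markers, against 23.1% of 7415 genes. Without the shared barcodes 8 of 24 were lower, against 15.9% of 7252 genes. Of 18 mitosis genes 11 were lower, and 10 without the shared barcodes. The replication clamp gene pcna had 166 CPM in the cells with endothelial markers, against 416 CPM, or 256 CPM without the shared barcodes, in the cells with no endothelial UMI. The topoisomerase gene top2a of dividing cells had 36.8 and 41.8 CPM, with overlapping intervals also without the shared barcodes.

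Notch signalling genes, which pattern arterial and haemogenic endothelium, were higher in runx1-/-. Of 11 tested, 9 were more than 2-fold higher and none lower by CPM, against 42.5% and 2.87% of all genes. Relative to the median gene 6 were higher, against 20.1% of all genes, and none lower. The median log2 ratio was 3.56, against 0.84 over all genes. Within HSPC-list cells 9 were higher and 1 lower by CPM, against 45.1% and 2.64% of all genes. The median there was 3.998, against 0.91. The ligand gene dll4, expressed in arterial endothelium, had 24.5 CPM in runx1-/- and 1.13 CPM in WT over all cells, and 33.4 and 1.08 CPM in HSPC-list cells. The ligand gene dlc had 116 and 5 counts over all cells, and 100 and 4 in HSPC-list cells. The target gene hey2, the zebrafish gridlock gene, which encodes a transcriptional repressor, had 72.2 CPM in runx1-/- and 1.78 CPM in WT in HSPC-list cells. It was found in 10.3% of runx1-/- and 0.327% of WT HSPC-list cells after thinning. In HSPC-list cells without endothelial UMIs hey2 had 34.4 and 1.09 CPM. Among the runx1-/- HSPC-list cells, hey2 had 118 CPM in those with endothelial markers and 27.5 CPM in those without (45.2 CPM with the shared barcodes also left out). There dll4 had 97.3 and 10.8 CPM (17.7 CPM), and dlc had 105 and 9.56 CPM (15.7 CPM).

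The other Notch genes differed in the cells that carried them and in size. The receptor gene notch3 had 49.2 CPM in runx1-/- and 2.13 CPM in WT, and 76.6% of its runx1-/- UMIs lay in cells of no list. The ligand gene jag1b had 28.8 and 2.42 CPM, with 61.1% of its runx1-/- UMIs in epidermal-list cells. The receptors notch1a, notch2 and notch1b had log2 ratios of 1.37, 1.49 and 0.42. Of the Hes-type repressors, her6 had 193 CPM in runx1-/- and 61.7 CPM in WT, while her9 had 77.2 and 83.4 CPM over all cells and 30.2 and 76.4 CPM in HSPC-list cells. Among the runx1-/- HSPC-list cells, her6 had 252 CPM in those with endothelial markers and 83.7 CPM in those without (104 CPM with the shared barcodes also left out).

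Myeloid factors were lower in runx1-/-. Of 6 tested, 5 were more than 2-fold lower and 1 higher, by CPM and relative to the median gene, with a median log2 ratio of -2.45. Over all genes 2.87% were lower and 42.5% higher by CPM, and 12.3% and 20.1% relative to the median gene. The Pu.1 gene spi1b, required for myeloid fate, had 14.6 CPM (11.5 to 18.3) in runx1-/- and 103 CPM in WT. Its paralog spi1a had 3 and 463 counts, and the related ETS gene spi2 had 1 and 608 counts. The granulocyte factor cebpa had 30.5 and 132 CPM, and cebpb, active in emergency granulopoiesis, had 507 and 1529 CPM. Within HSPC-list cells spi1b had 6.67 CPM in runx1-/- and 47.2 CPM in WT, and spi1a had 0 and 208 counts. The log2 ratio of spi1b there was -2.75, and it was -1.03 in HSPC-list cells chosen after thinning, from 8 and 106 counts. The exception was cebpd, with 486 CPM in runx1-/- and 70.24 CPM in WT. Epidermal-list cells held 71.4% of its runx1-/- UMIs and 50.8% of its WT UMIs. For cebpb, lower in runx1-/-, they held 76.5% of the runx1-/- UMIs and 3.87% of the WT UMIs.

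The neutrophil markers summed to 1435 CPM in runx1-/- and 3339 CPM in WT, with lysozyme gene lyz as the main part. It had 1337 CPM in runx1-/-, carried by 19 cells, and 3038 CPM in WT, carried by 412 cells. The granule peroxidase gene mpx had 4.47 and 41.9 CPM, and cpa5, a carboxypeptidase gene of mast cell and myeloid lineages, had 4.86 and 59.6 CPM. Macrophage markers summed to 31.5 CPM in runx1-/- and 35.7 CPM in WT, with 3 of 10 at 0 counts in runx1-/-. The macrophage marker ccl34b.1 had 124 UMIs in 1 runx1-/- cell.

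The chemokine receptor genes ccr9a and cxcr4b were lower in runx1-/-. The first, a thymus-homing receptor gene, had 26 counts in 2 cells of runx1-/- (5.06 CPM) and 18419 counts in 1031 cells of WT (496 CPM), a log2 ratio of -6.56 (-7.23 to -6.06). After thinning it was found in 0.351% of runx1-/- and 30.7% of WT cells, against 0 of 114 runx1-/- and 3.48% of WT strict epidermal cells. The Cxcl12 receptor gene cxcr4b, which guides stem cells and leukocytes, had 149 CPM (139 to 160) in runx1-/- and 791 CPM (782 to 800) in WT. Within HSPC-list cells cxcr4b had 75.01 and 737 CPM, and it was found in 4.64% of runx1-/- and 58.5% of WT HSPC-list cells after thinning. The Cxcl12 scavenger receptor gene ackr3b ran the other way, with 10.7 and 0.916 CPM. Among cytokine receptors mpl, for thrombopoietin, had 10.3 and 9.48 CPM, kita 5.25 and 4.82 CPM, and csf1rb 53.3 and 71.8 CPM. The T lymphoid markers summed to 22.9 CPM in runx1-/- and 507 CPM in WT, of which ccr9a alone gave 5.06 and 496 CPM. Nearly all of the WT sum, but not of the runx1-/- sum, was thus this 1 gene. The NK or innate lymphoid markers summed to 0.389 CPM in runx1-/-, with 5 of 6 at 0 counts, and 15.1 CPM in WT. The order for ccr9a was the same at the other ages, with 26.6 CPM in runx1-/- and 168 CPM in WT at 2.5 dpf, 35.6 and 868 CPM at 10 dpf, and at 16 dpf 94.4 CPM in bloodless and 64.4 CPM in recovered runx1-/- and 743 CPM in WT.

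Red cell genes depended on the shared barcodes. The haemoglobin genes summed to 13458 CPM in runx1-/- and 5893 CPM in WT with all cells, and to 4049 and 5883 CPM without the shared barcodes, which turned the direction. The 21 large runx1-/- cells with shared barcodes were among the 24 largest of that library, and 12 of the 21 belonged to the erythroid list. Leaving the shared barcodes out removes these cells too, so the values without them lack most of the deepest runx1-/- cells. Shared barcodes held 74.6% of the runx1-/- haemoglobin UMIs, and the 10 cells richest in haemoglobin held 92.4% of them in runx1-/- and 16.5% in WT. Cells with at least 10% haemoglobin UMIs numbered 9 in runx1-/- and 34 in WT. Of 11 haemoglobin genes tested, 7 were more than 2-fold higher and none lower with all cells, against 42.5% and 2.87% of all genes. Without the shared barcodes 7 were higher and 3 lower of 10 tested, where 41.1% of all genes were higher and 4.62% lower. The abundant embryonic beta globin hbbe1.1 had 5610 CPM in runx1-/- and 3400 CPM in WT, a log2 ratio of 0.72 that became -2.05. Embryonic hbae3 had a log2 ratio of 0.28 with all cells and -1.27 without the shared barcodes. Higher in both settings were hbae1.3, with 2311 and 282 CPM (log2 ratio 3.03, and 1.92 without shared barcodes), and hbbe1.2, with 770 and 32.3 CPM (4.58 and 3.44). Adult hbaa1 had 11.3 CPM in runx1-/- and 2.34 CPM in WT. Globin genes are near copies of each other, and the counting may have split their reads, so single globin values are uncertain.

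Of 15 genes of haem synthesis and the red cell membrane, 5 were more than 2-fold higher and 1 lower in runx1-/- with all cells. Over all genes 42.5% were higher and 2.87% lower. Without the shared barcodes none of the 15 was higher and 6 were lower, against 41.1% and 4.62% of all genes. The median log2 ratio of the 15 genes was 0.56 with these barcodes and -0.45 without them, against 0.84 and 0.74 over all genes tested. The first enzyme of haem synthesis in red cells, encoded by alas2, had 18.1 CPM in runx1-/- and 5.36 CPM in WT, a log2 ratio of 1.76 that was 0.56 without shared barcodes. The anion exchanger gene slc4a1a had 140 and 96.5 CPM, a log2 ratio of 0.54 that became -1.11. The ammonium transporter gene rhag was lower both ways, with 44.5 and 120 CPM (-1.42, and -2.31 without shared barcodes).

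**Figure D4:**
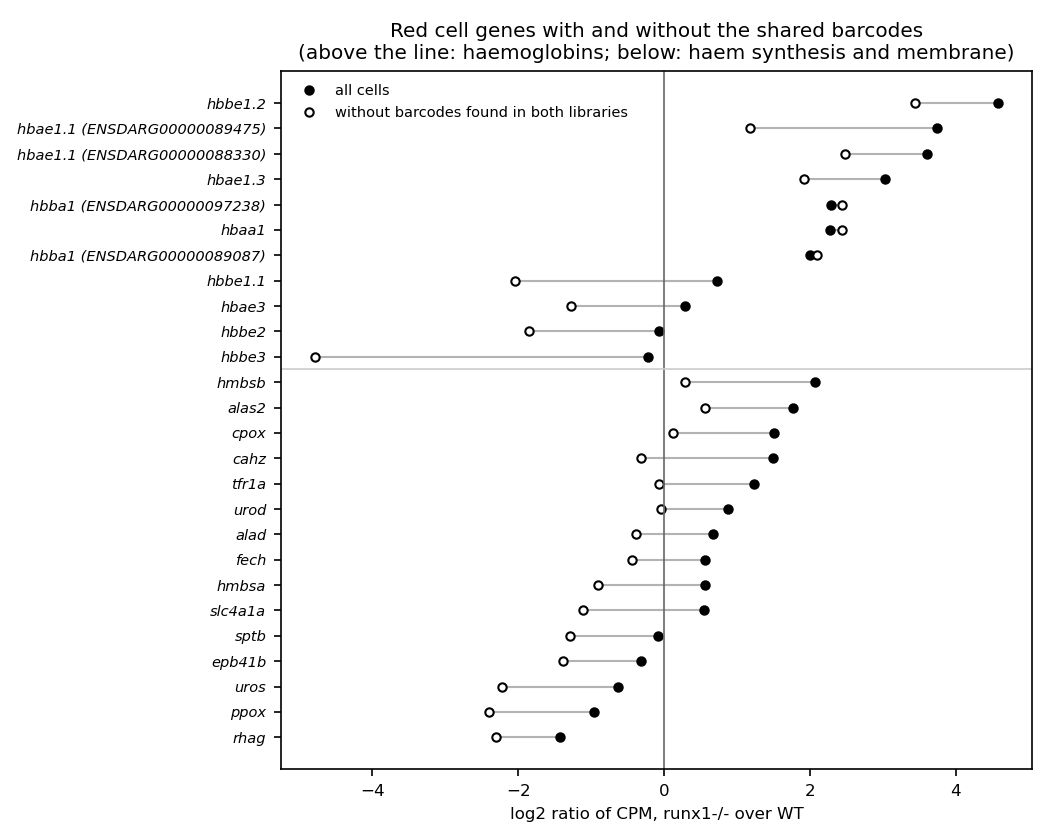
Log2 ratio of CPM, runx1-/- over WT, for haemoglobin genes (upper) and genes of haem synthesis and the red cell membrane (lower), with all cells (filled) and without the barcodes found in both libraries (open). The open points lie at lower ratios for every gene except hbaa1 and the hbba1 genes, and hbbe1.1 moves across 0, to -2.05.

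Thrombocyte markers summed to 206 CPM in runx1-/-, against 109 CPM in WT. Of the 9, 7 had a higher CPM in runx1-/-, against 6116 of all 7319 genes tested. The integrin gene itga2b, whose promoter drives the reporter, had 5.45 CPM (28 counts) in runx1-/- and 2.59 CPM (96 counts) in WT. The megakaryocytic factor nfe2 had 4.67 and 20.6 CPM, and the platelet glycoprotein gene gp9 had 19.8 and 29.6 CPM. The thrombospondin gene thbs1b, the largest part of the runx1-/- sum, had 111 and 22.004 CPM. Epidermal-list cells held 78.4% of the thbs1b UMIs of runx1-/- and 62.1% of those of WT. Of the others, the fibronectin gene fn1b had 15.2 and 2.02 CPM, the glycoprotein receptor gene gp1bb 18.5 and 9.26 CPM, the clotting factor gene f5 18.9 and 13.7 CPM, and bin2a 9 and 7 counts.

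Cell cycle genes were near the median gene over all cells. Of 25 genes of DNA replication, 12 were more than 2-fold higher by CPM, against 42.5% of all genes, and none lower, with a median log2 ratio of 0.95, and 1 was higher relative to the median gene. That was 1 of the 2 genes named rrm2, which encode a subunit of ribonucleotide reductase (ENSDARG00000020711, 187 counts in runx1-/- and 2 in WT). The other (ENSDARG00000078069) had 684 and 1626 counts, and such near copies may share reads, so both are uncertain. Of 18 mitosis genes, 11 were higher by CPM, with a median of 1.09, and 2 relative to the median gene, against 20.1% of all genes. Without the shared barcodes 3 of 24 replication and 6 of 18 mitosis genes were higher by CPM over all cells and none lower. The shares of all genes were then 41.1% and 4.62%. The median log2 ratios were then 0.36 for replication and 0.89 for mitosis genes, against 0.74 over all genes tested. Within HSPC-list cells 22 of 26 replication genes and all 18 mitosis genes tested were higher by CPM, against 45.1% of all genes. Relative to the median gene 4 and 5 were higher, against 15.8% of all genes. There pcna had 357 CPM in runx1-/- and 157 CPM in WT, and mki67 162 and 61.4 CPM. Without the shared barcodes 12 of 25 replication and 16 of 19 mitosis genes were higher by CPM in HSPC-list cells and none lower, against 43.1% and 4.42% of all genes. There pcna had 262 CPM in runx1-/-, against 157 CPM in WT.

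Immediate early and dissociation response genes, which tissue handling can induce, were higher by CPM in 16 of 24, against 42.5% of all genes, and lower in none. Relative to the median gene 6 were higher, against 20.1%, and 1 lower, with a median log2 ratio of 1.24. The AP-1 subunit gene fosl1a had 411 CPM in runx1-/- and 31.2 CPM in WT, and atf3, a stress-induced factor, 646 and 44.7 CPM. The heat shock gene hsp70.3 had 4124 and 2069 CPM, and nr4a1 a log2 ratio of -0.19. Within HSPC-list cells 8 of 24 were higher, against 45.1% of all genes. Without the shared barcodes 15 of 24 were higher in these cells, against 43.1% of all genes. With all barcodes fosl1a had 254 and 12.6 CPM in HSPC-list cells. Among the runx1-/- HSPC-list cells, fosl1a had 426 CPM in those with endothelial markers and 64.6 CPM in those without (106 CPM with the shared barcodes also left out). The part of this response in the other differences was not tested.

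All 4 tested interferon response genes were higher by CPM, against 42.5% of all genes, and 1 relative to the median gene, against 20.1%. That gene was isg15, a ubiquitin-like modifier, with 15.6 CPM in runx1-/- and 0.431 CPM in WT. The class II chaperone genes cd74a and cd74b had log2 ratios of 1.24 and 1.102. Of 83 tested ribosomal protein genes, 10 were more than 2-fold lower and 4 higher by CPM, against 2.87% and 42.5% of all genes. Relative to the median gene 65 were lower, against 12.3% of all genes. Within HSPC-list cells the ribosomal protein genes took 41.7% of runx1-/- UMIs and 59.7% of WT UMIs. The share of UMIs in ribosomal protein genes is part of every CPM, and with them left out of the totals the median gene stood at 0.34.

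**Figure D5:**
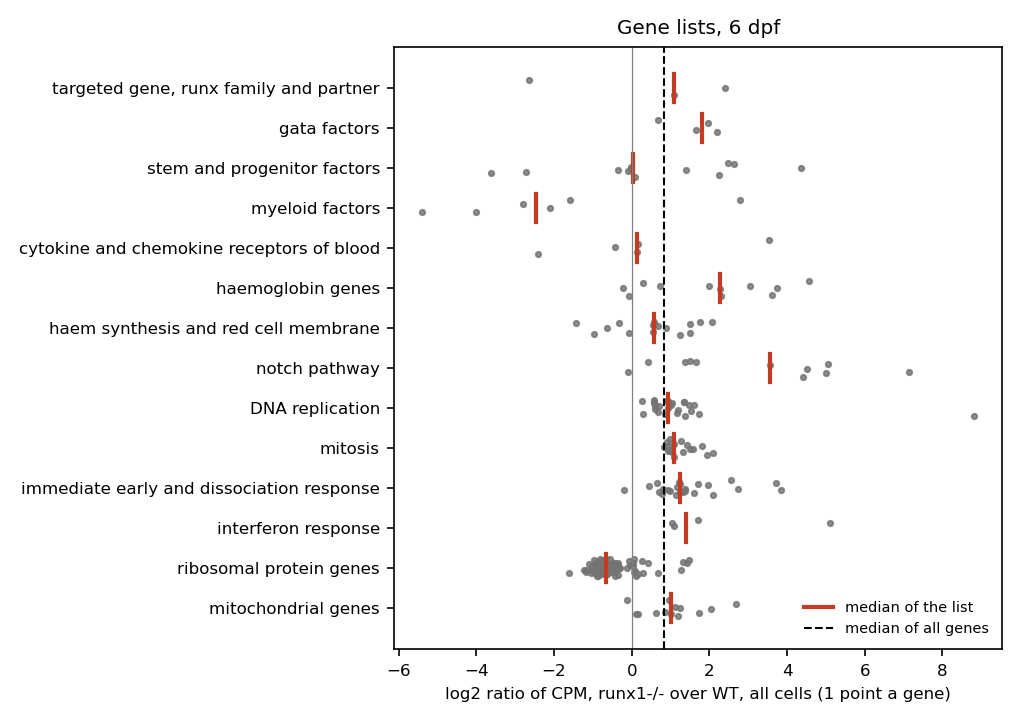
Log2 ratio of CPM, runx1-/- over WT, for each tested gene of each list over all cells at 6 dpf; each point is 1 gene, with the median of the list and the median of all genes tested (0.84) marked. Notch pathway genes centre on 3.56 and myeloid factors on -2.45.

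Outside these gene groups, the genes named by size as higher in runx1-/- lay mostly in small groups of cells. The one with the highest level was stc1l, a stanniocalcin, the hormone family that the corpuscles of Stannius secrete to control calcium. It had 8714 CPM in runx1-/- and 120 CPM in WT, and 57.1% of the WT UMIs lay in 1 cell. After thinning 42 runx1-/- and 6 WT cells had at least 10 stc1l UMIs. Of the 42, 31 (73.8%) had a UMI of pyyb, a peptide YY hormone gene, 38 (90.5%) of the epithelial adhesion gene epcam and 21 of notch3. The kidney cadherin gene cdh16 was found in 15, and the kidney tubule markers pax2a and cdh17 in 12 and 10. Of HSPC markers, 0 had myb or kita and 6 had lmo2 (14.3%), and 5 cells belonged to any marker list. Among the other 528 runx1-/- cells pyyb was found in 3.598%. A UMI of stc1l was also found in 5.26% of runx1-/- strict epidermal cells and 6.70% of runx1-/- HSPC-list cells. The part of free RNA in these shares was not tested. At the other ages stc1l had 3738 CPM in runx1-/- and 642 CPM in WT (2.5 dpf), 3524 and 3602 CPM (10 dpf), and at 16 dpf 13597 CPM in bloodless and 8600 CPM in recovered runx1-/- and 1658 CPM in WT.

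The others included genes of neurons, hormone cells and germ cells. Those of neurons were scg2b, a secretogranin of dense core vesicles (61.1 CPM in runx1-/- and 0.296 CPM in WT), sncb, beta-synuclein (49.0 and 0.458 CPM), and stmn1b, a tubulin regulator (93.0 and 1.05 CPM). Neuron-list cells, for which sncb and stmn1b are themselves markers, held 94.9% of the runx1-/- UMIs of scg2b. The prolactin gene prl had 1864 counts in 3 runx1-/- cells and 0 in WT (at least 4487-fold higher). The glucagon gene gcgb had 266 counts in 2 runx1-/- cells and 0 in WT (at least 640-fold higher). For each gene 1 cell held most of the counts (72.4% for prl and 99.6% for gcgb), so these folds rest on very few cells. The germ cell helicase gene ddx4 had 356 counts in 5 runx1-/- cells and 3 in WT, a log2 ratio of 9.33 (8.18 to 12.03). The growth factor gene areg had 572 and 3.21 CPM, with 85.8% of its runx1-/- UMIs in cells of no list, and the kidney cadherin gene cdh16 had 53.1 and 0.404 CPM. CABZ01030107.1, a gene without a descriptive name, had 149 and 0.269 CPM, and 84.1% of its runx1-/- UMIs lay in endothelial-list cells.

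Of the 12 genes named by size as lower in runx1-/-, 5 belong to a set numbered si:dkey-21e2, with 0 to 5 counts each in runx1-/-. Of these, si:dkey-21e2.15 had 1 count in runx1-/- and 26447 counts (712 CPM) in 107 cells of WT, si:dkey-21e2.16 had 0 and 16849 counts (at least 778-fold lower), and si:dkey-21e2.10 had 0 and 3523 (at least 163-fold lower). Genes of the mfap4 family, of which mfap4 is used as a macrophage marker in zebrafish, were also lower. The gene si:zfos-2330d3.7 (mfap4.8 in the GRCz12tu gene table) had 3 and 4956 counts, and si:ch1073-110a20.2 (mfap4.7) had 3 and 1523. In WT, cells of no list held 89.1% and 83.0% of the UMIs of these genes, and macrophage-list cells held 0.0203% and 0%. The near-identical copies of these genes may share reads, so single values are uncertain. Found in many WT cells was si:dkey-262k9.4 (fxyd5 in that table, of a family that regulates the sodium pump), with 16 counts in 13 runx1-/- cells and 4462 counts in 1721 WT cells. The gene si:dkey-27i16.2, with no descriptive name, had 60 counts in 28 runx1-/- cells and 7907 counts in 1110 WT cells. In WT 63.5% of the UMIs of si:dkey-262k9.4 and 74.0% of those of si:dkey-27i16.2 lay in cells of no list, as did 80.0% of those of ccr9a.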

How the data were processed

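Cells sorted for low cd41:GFP at 6 dpf were captured with 10x Genomics Chromium (3′ v3 kit), per the labels' protocols. The deposited values are raw UMI counts per gene and barcode. The submitters' processing notes name Cell Ranger 2.0.2 and GRCz10, while the file headers give software version 3.1.0. Kept were barcodes of at least 500 UMIs and 200 genes and at most 20% mitochondrial UMIs, which leaves out 32 of 799 in runx1-/- and 26 of 2754 in WT. Doublets were kept; in an alternative the highest Scrublet scores (0.8% per 1000 cells) were removed, 5 in runx1-/- and 60 in WT. Counts were summed per library or class of cells into CPM with exact Poisson intervals. Before log2 ratios were taken 1 count was added as a prior, and their intervals were conditional binomial. Genes with a mean of both CPM of at least 5 were counted, past a 2-fold ratio. Shares used cells thinned to 2000 UMIs (seed 1). Named were runx1, list members, and outside the lists the 12 genes in each direction (mean at least 20 CPM) whose interval bound nearest 0 was largest. The comparison, lists and marker genes were chosen with earlier results of these data known. The steps were tested on simulated data. Python 3.11.15, numpy 2.4.6, scipy 1.17.1, pandas 2.3.3, scanpy 1.11.5 and matplotlib 3.10.9 were used.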

Additional observations from a re-analysis of the deposited data

Results flagged for a closer look

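The ratio of runx1-/- to WT shares at 6 dpf was compared with that at each other age for 7 marker lists. For 2 of them there was an age at which every runx1-/- library had the opposite sign from 6 dpf, with counting intervals on both sides that leave out 0. Every age has 1 WT library and 1 or 2 runx1-/- libraries, so the difference was not tested. For HSPC-list cells the log2 ratio of shares was 0.46 at 6 dpf (34.04% of runx1-/- and 24.7% of WT cells). At 2.5 dpf this ratio was -2.31 (6.31% of runx1-/- and 31.2% of WT cells). The later ages had the sign of 6 dpf, with 0.50 (10 dpf), 0.63 (16 dpf, bloodless) and 0.85 (16 dpf, recovered).

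For erythroid-list cells the log2 ratio was -1.82 at 6 dpf (4.39% of runx1-/- and 15.5% of WT cells), and it was above 0 for every other runx1-/- library. It stood at 3.97 for 2.5 dpf (56.1% of runx1-/- and 3.59% of WT cells) and at 1.12 for 10 dpf (22.8% of runx1-/- and 10.5% of WT cells). For 16 dpf it stood at 2.90 in bloodless larvae (1157 of 3093 cells) and at 3.54 in recovered larvae (3962 of 6821 cells), against 288 of 5760 WT cells. At 2.5 dpf 61.8% of runx1-/- cells also belonged to the epidermal list. Cells in both a blood and a non-blood list were 41.1% of runx1-/- and 4.32% of WT cells at that age. The part of free haemoglobin RNA in the erythroid share of 2.5 dpf was not tested.

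Signs also differed for other lists where only 1 of 2 libraries of an age did so or an interval included 0. The epidermal log2 ratio was 1.93 at 6 dpf, -1.16 at 10 dpf (-2.59 to 0.28) and -0.61 in the recovered library (-1.12 to -0.11), while the bloodless library had 0.995. The thrombocyte ratio was -0.06 at 6 dpf (-0.996 to 0.87), against 0.24 at 2.5 dpf and 1.73 and 1.99 in the bloodless and recovered libraries. The neutrophil ratio was -1.95 at 6 dpf and 0.07 at 10 dpf (-0.24 to 0.38), and the neuron ratio 6.88 at 6 dpf and -0.21 in the recovered library (-0.63 to 0.20).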

How the results depend on the processing

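No paired analysis was possible because each genotype had 1 library at 6 dpf and no replicate numbers. The log2 ratio of the HSPC share was 0.93 with cells thinned to 1000 UMIs, 0.089 at 3000 UMIs, 1.44 with 3 markers, 0.96 without markers above 200 CPM and -0.47, the opposite sign, without thinning. The erythroid ratio was -2.71 without shared barcodes and -1.03 without markers above 200 CPM, and the thrombocyte ratio 0.26, the opposite sign, at 3000 UMIs and -1.31 without thinning. The neutrophil ratio was -3.66 at 1000 UMIs and -3.20 with 3 markers. The endothelial ratio was 8.36 at 1000 UMIs (1 WT cell), 9.06 with 3 markers (0 WT cells) and 2.86 without thinning. The epidermal ratio was 1.43 without thinning and 4.12 without markers above 200 CPM.

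Genes higher and lower in runx1-/- (3113 and 210) numbered 1468 and 906 with median-of-ratios scaling, where 61.8% of these were higher, against 93.7% by CPM. They numbered 13699 and 607 with no filter on low values, 961 and 92 at a mean of at least 20 CPM, and 1306 and 86 at 4-fold. With shared barcodes left out only of the library where they held fewer UMIs, they numbered 3112 and 210. Lower genes numbered 397 with each cell weighing the same, 335 without shared barcodes, 736 with ribosomal protein genes out of the total (78.4% of these higher) and 342 with cells thinned to 2000 UMIs. The settings on markers above 200 CPM, shared barcodes, the ribosomal total, thinned sums and endothelial UMIs were chosen after seeing the data. Over single named genes 177 values over all cells and 89 within HSPC-list cells moved by more than the counting interval, and 329 and 121 did not. The depth of the runx1-/- library limits genes of a few counts, and 1 library a side leaves the spread between larvae unmeasured.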
